A study of Mus musculus with 2 samples.

Results

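5-Hydroxymethylcytosine (5hmC) was mapped in mast cells with and without TET2, and the regions described here are 5hmC peaks that lie close to other peaks and were still called, with no directly called change, in cells that lack TET2. They are 3970 of the 18160 peaks of the Tet2+/+ library. They were selected on the authors' peak calls: a Tet2+/+ peak on an autosome had to overlap a peak of the Tet2-/- library by at least 1 bp, overlap no peak called directly between the libraries in either direction, and have at least 3 other Tet2+/+ summits within 50 kb. Such a region is called a kept dense region below, and any Tet2+/+ peak with at least 3 other summits within 50 kb is called dense. The 3970 regions are 22.2% of the 17882 autosomal Tet2+/+ peaks and 40.9% of the 9709 kept ones. On X and Y, 95 peaks met the other conditions, and they are not included.

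5hmC is formed when TET enzymes oxidise 5-methylcytosine, most often at CpG sites, and it is an intermediate of DNA demethylation as well as a stable mark. TET1 and TET3 carry out the same reaction as TET2, which is the family member best known for its role in blood cells. In differentiated cells 5hmC is known for lying in enhancers and in the bodies of transcribed genes, while unmethylated CpG islands carry little of it.

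The cells were primary bone marrow-derived mast cells of C57BL/6 mice aged 6 to 12 weeks, grown with interleukin-3. One genotype was Tet2+/+ and the other Tet2-/-, and neither received a treatment. Cells of both genotypes were sorted for surface Kit and FcεRIα after 4 weeks, since cultures without TET2 differentiated less well, so the comparison covers only cells that reached this stage. There was 1 library per genotype. Bone marrow came from 2 animals per genotype, and whether their DNA was pooled is not stated in the labels. The kind of Tet2 allele is not stated there either. DNA peaks do not show expression, so mast cell identity was not tested against marker genes. With no replicates, no p-value across samples could be given, and all intervals cover counting error only.

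Values are numbers of sequenced DNA fragments over a peak's summit, recovered from the deposited peak statistics. Background coverage per position was 1.46 Tet2+/+ fragments and 1.72 Tet2-/- fragments. The Tet2-/- library was thus taken as 1.18 times as deep, and Tet2-/- values called depth-scaled were divided by this ratio. This sets the libraries to equal background coverage, so a change of the mark across the whole genome may not show. Depth-scaled ratios therefore compare how fragments are distributed within each library, and are not shares of the mark retained. A change in its total amount was not tested. Positions are in mm9 and 1-based, and no gene annotation or genome sequence of that build was used here, so regions are named by position alone and no sequence is shown.

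Dense peaks were kept about as often as Tet2+/+ peaks in general. Of 7270 dense peaks, 3970 were kept (54.6%, 95% exact Clopper-Pearson interval 53.5 to 55.8), against 9709 (54.3%) of all 17882 autosomal ones. Another 1121 (15.4%) overlapped a region called higher in Tet2+/+, and 2099 (28.9%) had neither a Tet2-/- peak nor a direct call. The last 80 (1.10%) overlapped a region called higher in Tet2-/- alone. Over all autosomal Tet2+/+ peaks, 61.0% overlapped a Tet2-/- peak, 13.9% overlapped a region called higher in Tet2+/+ and 1.04% one called higher in Tet2-/-. Neither a Tet2-/- peak nor a direct call was found for 30.7% of them. These calls define the kept regions, so the shares describe them and test nothing.

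Crowding of peaks went with little change in the share that was kept. Among peaks with no other Tet2+/+ summit within 50 kb, 1688 of 3188 were kept (52.9%, 51.2 to 54.7). The share was 55.4% (53.4 to 57.3) at 3 other summits, 56.5% (53.5 to 59.4) at 5, and 51.7% (47.2 to 56.2) at 8 or more. Intervals at the low and high ends of crowding overlap. The share called higher in Tet2+/+ was 12.4% (11.2 to 13.6) with no other summit and 19.5% (16.1 to 23.2) at 8 or more. Peaks were also stronger there, with a median of 21 fragments against 15 in all isolated Tet2+/+ peaks. The part of peak strength in the rise of direct calls was not tested.

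**Figure D1:**
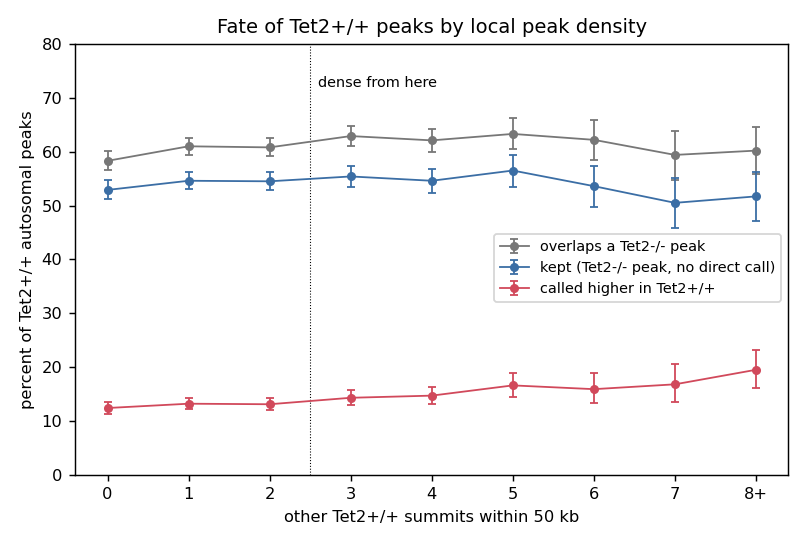
Share of autosomal Tet2+/+ peaks (y axis, percent) by the number of other Tet2+/+ summits within 50 kb (x axis), for peaks that overlap a Tet2-/- peak, peaks that were kept, and peaks called higher in Tet2+/+; bars are 95% exact intervals for counting error. The kept share runs between 50.5% and 56.5%, while the share called higher goes from 12.4% to 19.5%.

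At the edge of the rule, crowding did not mark a step in strength. The 1418 kept peaks with exactly 3 other summits had a median of 18 fragments (quartiles 15 to 23) and a median deposited fold of 5.69. The 1893 kept peaks with exactly 2 other summits, just outside the rule, had a median of 18 fragments (15 to 23) and a fold of 5.82. The kept dense regions had between 3 and 15 other summits within 50 kb, with a median of 4, and 255 of them (6.42%) had 8 or more.

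Kept dense regions carried slightly more 5hmC fragments than isolated kept peaks but stood less far above their surroundings. Their summits were covered by a median of 19 Tet2+/+ fragments (quartiles 16 to 25, range 9 to 173), against 17 (14 to 22) at the 1688 isolated kept peaks. The 10 kb around a kept dense region held a median of 131 Tet2+/+ fragments, against 94 around an isolated kept peak. Summit fragments were therefore a median of 14.8% of the fragments in 10 kb in kept dense regions and 17.8% at isolated kept peaks. The deposited fold, which is measured over this 10 kb, had medians of 5.56 and 6.11. Where the 10 kb fell below the genome background, that background, 73 Tet2+/+ fragments, stands in its place. Both libraries were above their background in 91.5% of kept dense pairs and 73.5% of isolated kept pairs, so this floor applied more often at isolated peaks. A neighbouring peak inside the 10 kb adds to these fragments, but the nearest other Tet2+/+ summit was a median of 7.65 kb away. Most of these windows, centred on the summit, therefore held no other summit. The part of neighbouring peaks in the lower fold was not tested.

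Kept dense peaks lay in strength between those called higher in Tet2+/+ and those with neither a Tet2-/- peak nor a direct call. The median was 24 fragments, with a width of 398 bp, at dense peaks called higher in Tet2+/+. Dense peaks with neither a Tet2-/- peak nor a direct call had 14 fragments and 254 bp. The 80 overlapping a region called higher in Tet2-/- alone had 18.5 fragments and 392 bp, against 19 fragments in kept dense regions. The calls that set these classes depend on coverage themselves, so this order is a description. Kept dense regions were 364 bp wide, and the Tet2-/- peaks over them 350 bp. More than 1 Tet2-/- peak overlapped 29 kept dense regions (0.730%), and 68 (1.71%) shared a Tet2-/- peak with another Tet2+/+ peak.

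In Tet2-/- cells most of the same summits had slightly lower coverage after scaling for depth. For 2965 of the 3970 regions (74.7%) a Tet2-/- summit lay within 100 bp, and for 929 pairs (31.3%) within 20 bp. The median depth-scaled ratio of Tet2-/- to Tet2+/+ fragments over these pairs was 0.901 (quartiles 0.742 to 1.08), and 1930 of them (65.1%) had a ratio below 1. Of these pairs, 27 (0.911%) were below 0.5 and 7 (0.236%) above 2. The rule had removed peaks called in either direction, which by itself limits both ends. Among pairs of dense peaks called higher in Tet2+/+, 38.2% were below 0.5. Isolated kept peaks had a median ratio of 0.905 (0.742 to 1.09) over 1327 pairs, so crowded and isolated kept peaks had nearly the same ratio. Dense peaks called higher in Tet2+/+ had a median of 0.537 over 387 pairs, which their direct call brings about.

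The direction of this small difference rests on scaling. In raw fragments 1611 pairs (54.3%) had more in Tet2-/- than in Tet2+/+, and the median ratio without depth scaling was 1.06. All 8306 paired autosomal peaks, called or not, had a median depth-scaled ratio of 0.871, and relative to that value the kept dense regions stood at 1.03. All 7362 kept autosomal pairs, dense or not, had a median of 0.901, the same as the kept dense regions, so the 1.03 reflects the removal of directly called peaks by the rule. On the log2 scale the ratios had an SD of 0.40 over the 2965 pairs. Counting error alone would give a root mean square of 0.46, and the rule had already removed pairs with a direct call.

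**Figure D2:**
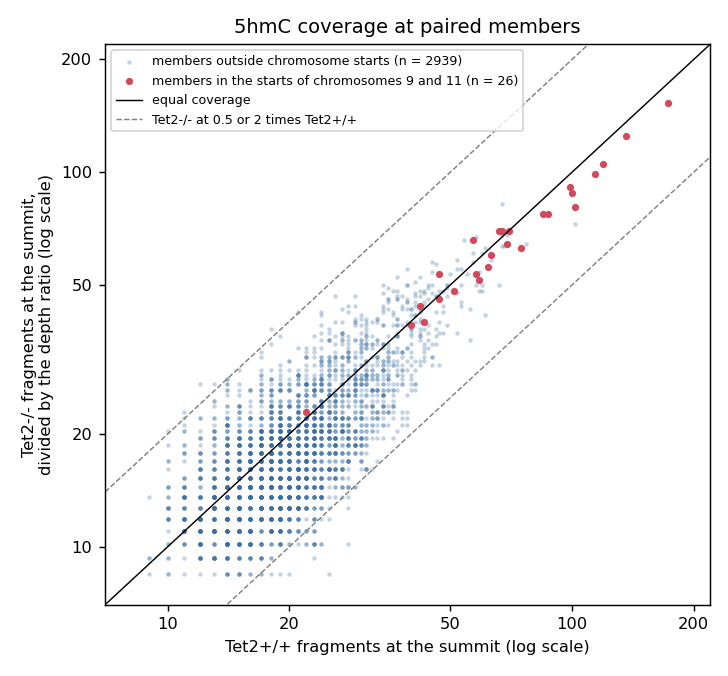
Fragments at the summits of the 2965 paired kept dense regions, Tet2+/+ on the x axis and depth-scaled Tet2-/- on the y axis (both log scales), 1 point per region. Most points lie below the line of equal coverage (65.1%). Few lie beyond the dashed lines at ratios of 0.5 and 2, after the rule had removed directly called peaks. The 26 pairs at the starts of chromosomes 9 and 11 are marked.

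Strength gave no single order of the ratio. When pairs were divided by the geometric mean of both libraries, the median ratio was 0.848 in the weakest quartile group and 0.963 in the strongest, which began at 24.0 fragments. When all kept dense regions were divided by Tet2+/+ fragments alone, it was 1.00 at 9 to 16 fragments and 0.865 at 26 to 173. The order thus reversed with the measure used to divide them, and a division by one library's own counts favours that library in the top group. The rule had also removed directly called peaks, which were higher in Tet2+/+ for 13.9% of autosomal peaks and in Tet2-/- for 1.04%. The part of this removal in either order was not tested.

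The surroundings of kept dense regions had a lower ratio than their summits. In the 10 kb around each summit, with the summit's own fragments taken off, the median depth-scaled ratio was 0.858 (quartiles 0.763 to 0.963) over the 2713 pairs in which both libraries were above background. It was 0.932 (0.837 to 1.04) over 976 pairs of isolated kept peaks and 0.734 (0.663 to 0.819) over 366 pairs of dense peaks called higher in Tet2+/+. Over the same 2713 pairs the summit ratio had a median of 0.905, and the ratio of the surroundings was the lower one in 1529 (56.4%). Over the 976 isolated pairs it was the lower one in 468 (48.0%), with a median summit ratio of 0.913. Without depth scaling the medians of the kept dense pairs were 1.01 for the surroundings and 1.07 for the summits, and relative to all autosomal pairs they were 0.985 and 1.04. The order of surroundings and summits thus does not depend on scaling, but which of them lies farther from 1 does. Fragments of the same peak that miss its summit stay in this count. The rule requires a Tet2-/- peak and no direct call at the peak itself, but sets no such condition on the rest of the 10 kb. The contrast is therefore a description, and the part of the rule in it was not tested. Over crowding the ratio of the 10 kb went from 0.932 with no other Tet2+/+ summit to 0.876 at 3, 0.841 at 5 and 0.808 at 8 or more, the last without the chromosome starts described below (0.837 with them). The ratio at the summit was 0.905, 0.901, 0.889 and 0.913 in the same groups.

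How crowding was counted changed the size of that slope. Counting other summits in the Tet2-/- list gave 0.909 with none and 0.839 at 8 or more, again without the chromosome starts (0.873 with them). Among pairs with a mean of at least 120 fragments in 10 kb, neither library was at its background. With Tet2-/- summits counted, their values were 0.866 and 0.834 without the chromosome starts. With the starts they were 0.867 and 0.870, so no fall remained between these 2 groups. With Tet2+/+ summits counted, the values were 0.900 and 0.803 without the starts, and 0.900 and 0.834 with them. A peak list favours places where its own library is high, and the 10 kb windows of neighbouring peaks overlap, so the points are not independent. These comparisons were chosen after seeing the data.

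**Figure D3:**
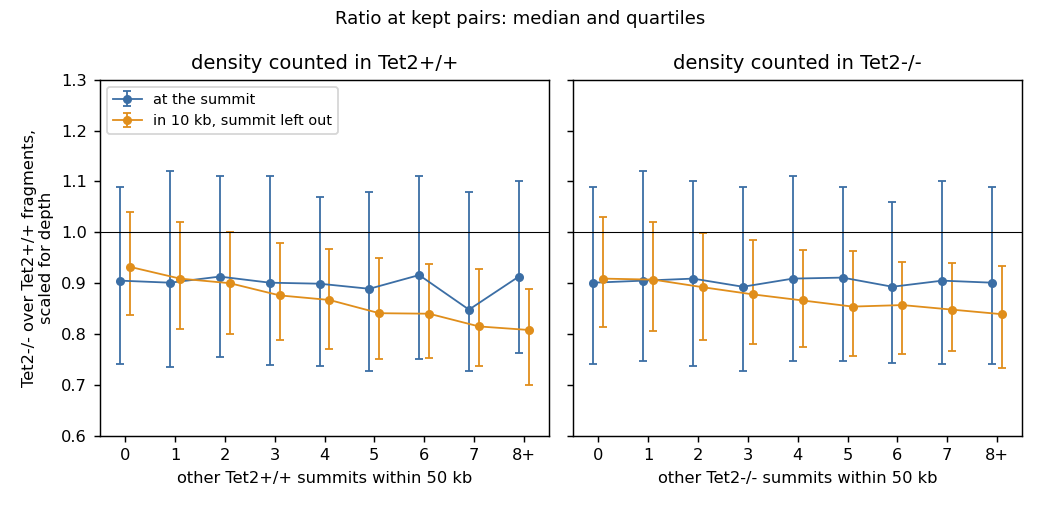
Depth-scaled ratio of Tet2-/- to Tet2+/+ fragments (y axis) at kept pairs outside the chromosome starts, by the number of other summits within 50 kb (x axis) in the Tet2+/+ list (left) or the Tet2-/- list (right); points are medians and bars are quartiles. The summit ratio stays between 0.848 and 0.916 on the left, whereas the ratio of the surrounding 10 kb goes from 0.932 to 0.808 on the left and from 0.909 to 0.839 on the right.

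Kept and lowered peaks were mixed within the same neighbourhoods. The kept dense regions had 17924 other Tet2+/+ peaks within 50 kb, each counted once for every region it neighboured. Of these, 55.3% were kept, 28.9% had neither a Tet2-/- peak nor a direct call, 14.6% were called higher in Tet2+/+ and 1.18% overlapped a region called higher in Tet2-/-. These shares were close to those of all autosomal peaks, at 54.3%, 30.7%, 13.9% and 1.04% in the same order. At least 1 neighbour called higher in Tet2+/+ was present for 1844 kept dense regions (46.4%), and every neighbour was kept for 411 (10.4%). Around dense peaks that were themselves called higher in Tet2+/+, 20.7% of the neighbours were called higher and 49.7% were kept. These shares are descriptions without a test, as neighbouring peaks share windows.

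The Tet2-/- library was crowded at the same places. Within 50 kb of a kept dense region it had a median of 5 summits (range 1 to 20), against 2 for all autosomal Tet2+/+ peaks. The 5 include the overlapping peak that the rule requires. The median was 4 around dense peaks called higher in Tet2+/+, and also around those with neither a Tet2-/- peak nor a direct call. At least as many summits in Tet2-/- as in Tet2+/+ were found for 1839 regions (46.3%), a count that includes the partner required by the rule. The share was 28.9% for dense peaks called higher in Tet2+/+ and 22.5% for those with neither a Tet2-/- peak nor a direct call. Leaving out this partner, there were 0.865 Tet2-/- summits for each other Tet2+/+ summit around kept dense regions, where the whole lists held 16875 Tet2-/- and 18160 Tet2+/+ peaks. The value was 0.822 around dense peaks called higher in Tet2+/+ and 0.857 around dense peaks with neither a Tet2-/- peak nor a direct call.

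Within neighbourhoods the kept regions were spaced by several kilobases. The nearest other Tet2+/+ summit was a median of 7.65 kb away (quartiles 3.68 to 13.5), and the nearest other kept dense region 13.4 kb (6.63 to 27.9). Another kept dense region lay within 1 kb for 4.63% of them and within 10 kb for 39.2%. Linking kept dense regions with gaps of at most 50 kb gave 1374 neighbourhoods. Of these, 369 held 1 region, 803 held 2 to 4, 202 held 5 or more, and 15 held 10 or more. The 202 larger ones spanned a median of 85.4 kb and held 1343 kept dense regions among 1758 Tet2+/+ peaks. Direct calls within them were 165 regions higher in Tet2+/+ and 34 higher in Tet2-/-. They also held 141 Tet2+/+ peaks called higher in Tet2+/+, 257 with neither a Tet2-/- peak nor a direct call, and 1699 Tet2-/- peaks, of which 275 overlapped no Tet2+/+ peak. Over all 17882 autosomal Tet2+/+ peaks, 2492 (13.9%) were called higher in Tet2+/+ and 5495 (30.7%) had neither. These neighbourhoods were picked for holding 5 or more kept dense regions, which by itself lowers their numbers of other Tet2+/+ peaks. No share over the whole lists is given for Tet2-/- peaks without a Tet2+/+ peak or for directly called regions. Those counts, here and in the single neighbourhoods below, therefore cannot be read as few or many.

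The neighbourhood with the most kept dense regions lay on chromosome 10 at 74519208 to 74782032. It held 17 of them among 22 Tet2+/+ peaks, with 2 peaks called higher in Tet2+/+ and 3 with neither a Tet2-/- peak nor a direct call, and the Tet2-/- library had 19 peaks there. Tet2+/+ fragments at the 17 summits ran from 14 to 38 (median 19) and Tet2-/- fragments from 12 to 32 (median 19). The strongest, at 74586662 to 74586966, was covered by 38 Tet2+/+ and 32 Tet2-/- fragments, the latter 27.1 depth-scaled. The larger of the peaks called higher in Tet2+/+, at 74756789 to 74757282 with 35 fragments, lay among kept regions on both sides. The median ratio over 9 pairs was 0.969 (range 0.714 to 1.19).

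On chromosome 11 at 11549485 to 11864088, 16 of 28 Tet2+/+ peaks were kept dense regions. Among the 5 named neighbourhoods this one had the most other peaks: 9 peaks had neither a Tet2-/- peak nor a direct call, 3 were called higher in Tet2+/+, and 6 of 25 Tet2-/- peaks overlapped no Tet2+/+ peak. Summits had 11 to 27 Tet2+/+ fragments and 12 to 40 Tet2-/- fragments, so the ranges overlapped. Ratios of 12 pairs ran from 0.590 to 1.64 (median 0.913).

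On chromosome 3 at 153198459 to 153501854, 15 of 21 Tet2+/+ peaks were kept dense regions, and 4 were called higher in Tet2+/+. There was also 1 region called higher in Tet2-/-. The region at its end, at 153501381 to 153501854, had 60 Tet2+/+ and 57 Tet2-/- fragments (ratio 0.806, 95% exact interval 0.551 to 1.18). Before it, a peak called higher in Tet2+/+ at 153480369 to 153480814 had 41 Tet2+/+ fragments and a Tet2-/- peak of 27, or 22.9 depth-scaled. The next kept region, at 153481805 to 153482253, had 23 Tet2+/+ fragments over a Tet2-/- peak of 25, or 21.2 depth-scaled. Depth-scaled Tet2-/- coverage was nearly equal at these neighbouring peaks, while Tet2+/+ coverage differed. These peaks were chosen after their values were seen, and the first was called for its higher Tet2+/+ coverage, so they show no general pattern.

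On chromosome 6 at 97760135 to 97936113, 15 of 19 Tet2+/+ peaks were kept dense regions and 3 were called higher in Tet2+/+. Again 1 region was called higher in Tet2-/-. The Tet2-/- library had 22 peaks there, more than Tet2+/+, and 3 of them overlapped no Tet2+/+ peak. The median ratio over 10 pairs was 1.07 (range 0.701 to 1.48). At 97861819 to 97862320 a peak called higher in Tet2+/+ had 44 fragments over a Tet2-/- peak of 25.

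Another neighbourhood of chromosome 3, at 105553031 to 105767385, also held 15 kept dense regions, and only its lower sum of fragments placed it after the 5 named ones. Of its 17 Tet2+/+ peaks none was called higher in Tet2+/+ and 2 had neither a Tet2-/- peak nor a direct call. It held no region called higher in Tet2-/- either. Summits there had 11 to 31 Tet2+/+ fragments and 13 to 31 Tet2-/- fragments (median 19 in both), and 13 pairs had a median ratio of 0.913 (range 0.597 to 1.46). A large neighbourhood outside the chromosome starts could therefore lack direct calls.

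**Figure D4:**
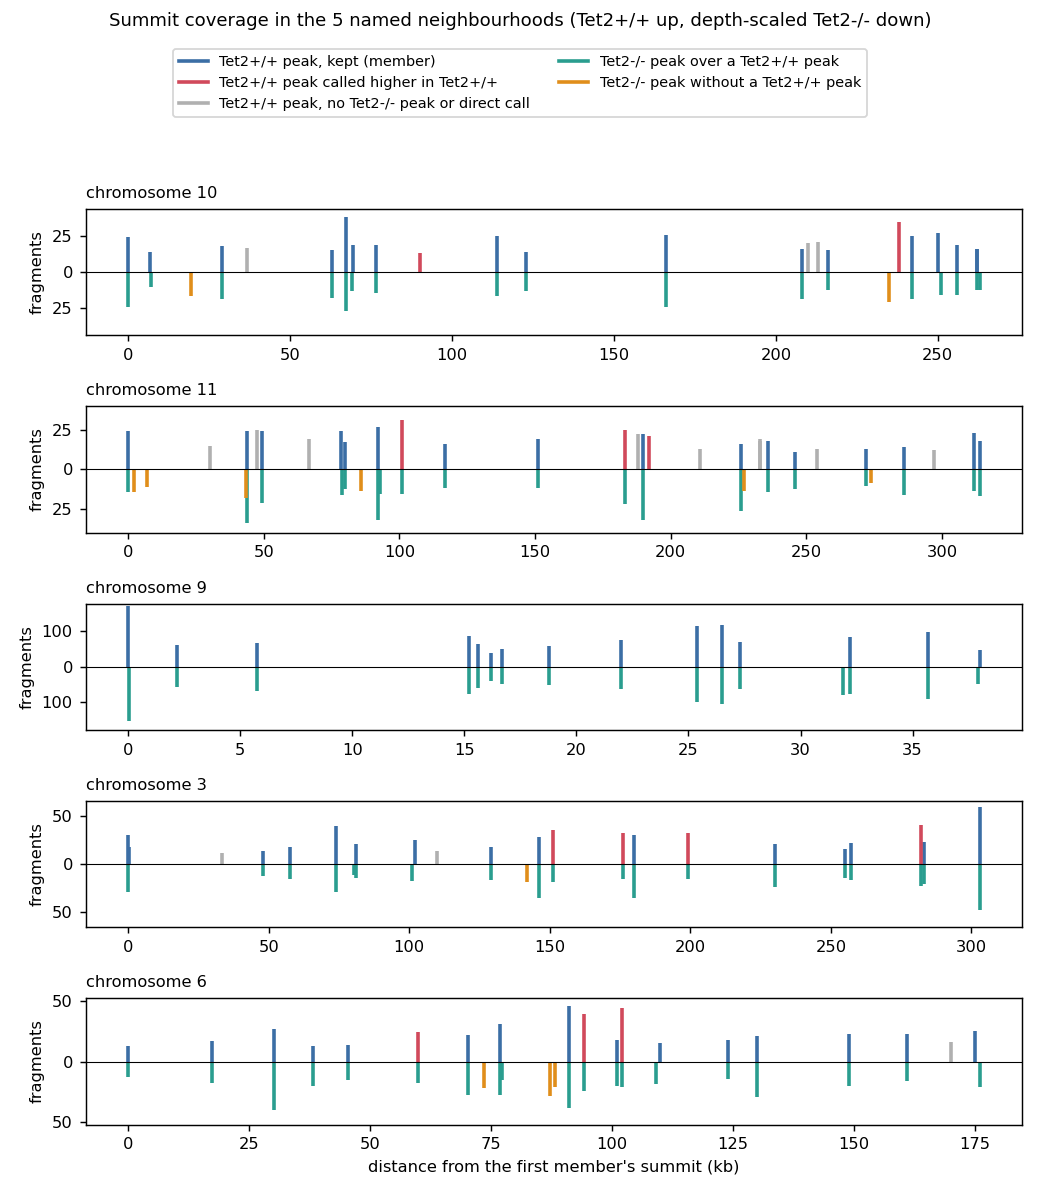
Summit fragments of every peak in the 5 named neighbourhoods of 15 to 17 kept dense regions, by distance from the first kept summit in kb (x axis), with Tet2+/+ upward and depth-scaled Tet2-/- downward (y axis, fragments). Peaks called higher in Tet2+/+ stand between kept ones in 4 panels (2, 3, 4 and 3 peaks), and the chromosome 9 panel, 38.0 kb long, holds 15 kept regions and no other Tet2+/+ peak; a sixth neighbourhood of 15, not drawn, holds no called peak.

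The remaining named neighbourhood stood apart from the rest. It lay at the first mapped bases of chromosome 9, at 2999944 to 3038347, and all 15 of its Tet2+/+ peaks were kept, with 40 to 173 Tet2+/+ fragments (median 69) and 46 to 181 Tet2-/- fragments (median 76). A similar group of 14 lay on chromosome 11 at 3000342 to 3100024, with 22 to 136 Tet2+/+ fragments. In the mouse assembly each chromosome begins with a gap that stands for the centromere, next to which sequence is rich in repeats. These 29 regions, all ending before 3.2 Mb, were the only kept dense regions in such a chromosome start. The 10 kb around them held a median of 734 Tet2+/+ fragments, against 131 for all other kept dense regions. Their median expected coverage was 14.7 fragments, and 19 of the 26 kept dense regions with over 10 expected fragments were among them.

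At these 29 regions, by median, coverage of the surrounding 10 kb followed library depth more closely than summit coverage did. Their 26 pairs had ratios from 0.790 to 1.16 (median 0.926), and the depth-scaled ratio of expected coverage, which counts all fragments in 10 kb, had a median of 1.02 (range 0.964 to 1.28). For all other kept dense regions that median was 0.867. No mask of repeated sequence was applied, and the part of repeats was not tested. Without the 29 regions, the kept dense regions had a median of 19 fragments and a median ratio of 0.898, against 19 and 0.901 with them.

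The strongest kept dense regions had high coverage in both libraries. By deposited −log10 q in Tet2+/+, 4 of the first 10 lay in the start of chromosome 9. The first, at chromosome 9, 2999944 to 3000417, had 173 Tet2+/+ fragments (95% Poisson interval 148 to 201) and 181 in Tet2-/-, or 153 depth-scaled. The others there, beginning at 3035717, 3015141 and 3026494, had 99, 87 and 119 Tet2+/+ fragments and 108, 91 and 124 Tet2-/- fragments. All 4 ratios were between 0.884 and 0.925.

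The other 6 lay on different chromosomes, with 3 or 4 other summits within 50 kb. On chromosome 2 at 181652058 to 181652780 there were 102 Tet2+/+ fragments (83.2 to 124) and 86 in Tet2-/-, a ratio of 0.715 (0.530 to 0.962). This is the one region of the 10 whose interval for the ratio lies below 1. On chromosome 17 at 88865795 to 88866426 there were 68 and 75 fragments, and the deposited folds were 16.4 in Tet2+/+ and 17.0 in Tet2-/-. On chromosome 15 at 62610268 to 62611061 there were 77 and 76 fragments.

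On chromosome 11 at 53953594 to 53954319 there were 63 Tet2+/+ and 69 Tet2-/- fragments, and this was the only Tet2-/- summit within 50 kb, where Tet2+/+ had 4 others. That region was thus crowded in one library and isolated in the other. On chromosome 10 at 122285434 to 122286040 there were 61 and 49 fragments, a ratio of 0.681 (0.458 to 1.01). On chromosome 4 at 45587520 to 45588461 there were 69 and 80 fragments, a ratio of 0.983 (0.704 to 1.38). Among the 100 strongest regions 97 were paired, and their ratios ran from 0.544 to 1.28 with a median of 0.913.

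At the extremes of the ratio, peaks were weak in one library. The lowest ratio was on chromosome 2 at 72634845 to 72635112, where 25 Tet2+/+ fragments stood over 10 in Tet2-/- (0.339, 0.145 to 0.731). Chromosome 7 at 16804715 to 16805207 followed with 28 and 12 fragments (0.363, 0.168 to 0.738). The 5 lowest had 20 to 28 Tet2+/+ and 10 to 12 Tet2-/- fragments, and none was in the direct calls, as the rule demands. The highest ratio was on chromosome 11 at 121641427 to 121641830, with 12 Tet2+/+ and 32 Tet2-/- fragments (2.26, 1.13 to 4.82). Next came chromosome 15 at 10514174 to 10514734, with 18 and 45 fragments (2.12, 1.20 to 3.89). These are the ends of 2965 values, and such intervals take no account of that choice.

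The ratios of adjacent kept dense regions showed almost no correlation. Across neighbouring pairs of regions the correlation of the log2 ratio was 0.03 (Pearson) and 0.07 (Spearman) for 202 pairs at most 5 kb apart. It was 0.06 and 0.06 for 732 pairs 5 to 20 kb apart, and −0.01 by both measures for 706 pairs 20 to 50 kb apart. The points share both libraries and their depth, and counting error is as large as the spread of the ratios. These correlations therefore cannot show whether adjacent regions share a ratio.

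All 19 autosomes held kept dense regions, from 119 on chromosome 18 to 331 on chromosome 11. Per megabase between the first and last peak, chromosome 11 had 2.79 (2.67 without its start), chromosome 19 had 2.39 and chromosome 8 had 1.15. The same chromosomes had 11.4, 10.2 and 6.12 Tet2+/+ peaks of any kind per megabase. The share of dense peaks that were kept was lowest on chromosome 17, at 47.2% (41.7 to 52.8), an interval that does not reach the 54.6% of all autosomes, though this chromosome is singled out as the lowest of 19. It was between 50.3% on chromosome 13 and 57.5% on chromosome 18 elsewhere. The median ratio was lowest on chromosome 2, at 0.848, and highest on chromosome 17, at 0.925, with quartiles that overlap on all chromosomes.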

How the data were processed

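Genomic DNA of 1 Tet2+/+ and 1 Tet2-/- library (4 µg each, sonicated to 200 to 400 bp) was enriched for 5hmC by glucosylation and biotin pulldown, per the labels' protocols. Bowtie2, MACS2 and mm9 are named per the submitters' processing notes, and their versions were not given in the sources used here. Deposited by the authors were 4 lists of peaks: the peaks of each library alone, and those of each library against the other. Each deposited peak has a score, a fold at the summit, a −log10 p and a −log10 q, all from the authors' peak caller, and a summit position. They were used to describe and rank peaks within a list.

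From fold and −log10 p, summit fragments and expected fragments were solved by the MACS2 formulas. Whole fragments fitted within 0.001 for 100% of own peaks. Expected values above background were multiples of 0.02, the share of 1 fragment of 200 bp in 10 kb, from which fragments in 10 kb follow. The calculation was tested on 2000 simulated peaks made by the same formulas. A Tet2+/+ peak was paired with the nearest summit of an overlapping Tet2-/- peak within 100 bp. Ratio intervals are 95% exact binomial. Calculations used scipy 1.17.1, pandas 2.3.3 and numpy 2.4.6 under Python 3.11.15.

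The rule and all lists were chosen with earlier results of these data known. Named were the 10 regions of highest −log10 q, the 5 neighbourhoods with most regions (4 tied at 15 were ordered by summed Tet2+/+ fragments), and the 5 lowest and 5 highest ratios with at least 20 fragments in both libraries together; other regions were chosen after their values were seen. Gene positions, CpG content and sequences were planned but not analysed, as no mm9 annotation or genome was used here. Alternatives were other crowding limits, overlap, q, pairing and scaling, and, after seeing the data, leaving out chromosome starts, and 2 other counts and 2 other scalings of the surroundings.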

Additional observations from a re-analysis of the deposited data

How the results depend on the processing

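Over 6 results and 13 settings, 35 values were recomputed, of which 18 stayed within their counting interval or, for numbers of regions, within 1.5 times. Needing 5 other summits left 1503 kept dense regions with a median of 21 fragments, 47.8% of them with another within 10 kb; with 2 that share was 33.8%. Distances of 25 and 100 kb gave 1619 (median 21 fragments) and 6476 regions. Reciprocal overlap of 50% made 48.5% of dense peaks kept. A −log10 q of at least 5 left 2268 regions, 60.8% of dense peaks, with a median ratio of 0.848. Stricter or looser limits change these numbers by construction. The median ratio passed to the other side of 1 with no depth scaling (1.06) and with all autosomal pairs set to a median of 1 (1.03), by construction of the scaling. The share of dense peaks kept was 53.9% to 54.6% under the other crowding limits. The ratio of the surrounding 10 kb, 0.858, became 1.01 without depth scaling and 0.985 relative to all autosomal pairs, also by construction. It was 0.835 with a mean of at least 120 fragments and 0.867 with Tet2-/- summits counted. Without the chromosome starts, all 6 results stayed within these limits. Alternatives for gene models and CpG content were not run. No paired analysis was possible because there was only 1 library of either genotype. Depth limits what a single region shows, at a median of 19 Tet2+/+ fragments.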
